A study of Mus musculus with 4 samples.

Results

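The retinoblastoma family and the E2F factors were followed in brown-like adipocytes through 10 genes: the pocket proteins Rb1, Rbl1 and Rbl2 and the factors E2f1 to E2f7. They were taken as every probe set whose platform annotation named only 1 gene, that gene being in this set, which gave 22 of 34945 such probe sets and 10 of 18193 genes. A probe set is a group of short probes on the array that is summarised as 1 value. The cells were stromal vascular cells (SVF, what remains of fat tissue without its mature fat cells) of epididymal white fat from 4-month-old male mice, wild-type or homozygous for an Lgr4 mutation. Each genotype had 2 arrays, called biological replicates in the labels, which do not say whether they came from separate mice; p-values therefore speak of the spread among these 4 samples alone, which may be technical. All cultures, wild-type and mutant, were listed with 10% fetal bovine serum. They were grown with 10 ng/ml basic fibroblast growth factor to confluence. They were then given 48 h of 5 µg/ml insulin, 0.5 mM IBMX (which raises cAMP), 1 µM dexamethasone, 50 nM T3 and 5 µM troglitazone (a PPAR gamma agonist), and 6 days of insulin, T3 and troglitazone. What the Lgr4 mutation changes is not given in the sources used here. Cultured SVF is a mixture of cell types. Fewer cells of a type and less RNA per cell cannot be told apart in such bulk RNA.

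Pocket proteins hold E2F factors on the promoters of cell cycle genes and keep those genes silent until cyclin-dependent kinases phosphorylate them. E2f1, E2f2 and E2f3 are the activators that the retinoblastoma protein Rb1 mainly restrains, whereas E2f4 and E2f5 repress together with Rbl1 and Rbl2. E2f6 represses without a pocket protein, through polycomb-type complexes, and E2f7 is an atypical repressor that binds DNA without a DP partner. In fat, Rb1 is known to assist C/EBP factors during adipocyte differentiation, and loss of Rb1 or Rbl1 has been tied to brown-like traits.

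Lgr4 signal was lower in the libraries labelled mutant. Its probe set 1433891_at read 8.65 and 8.20 in the wild-type pair against 6.18 and 6.09 in the mutant pair (difference -2.29, limma adjusted p = 6.65e-05 over all probe sets), and whether its probes lie in the altered part of the gene is not known. The other, 1453765_at, read 5.23 to 5.37 on all 4 arrays and lay below the signal filter, a mean log2 signal of 6.13 that a gene had to exceed to be tested. Correlation over probe sets was 0.9954 in the wild-type pair, 0.9977 in the mutant pair and 0.9822 to 0.9867 across genotypes. The control probe sets of Gapdh, which show RNA integrity by comparing the 3' and 5' ends of a transcript, differed by -0.11 to -0.08 (log2, 3' minus 5') on the 4 arrays. Those of Actb differed by 0.23 to 0.34. The Actb values were higher on both replicate 1 arrays (0.34 and 0.34) than on both replicate 2 arrays (0.23 and 0.27). All 9 tested adipocyte markers read above the filter on every array and all were higher in the mutant, with a mean log2 signal of 9.87 and 9.93 against 12.55 and 12.49. The 8 brown adipocyte markers averaged 6.09 and 6.37 in wild-type, close to the filter, against 8.08 and 7.90 in the mutant, and 4 of 6 tested rose. Ucp1, the uncoupling protein that defines brown fat, read 4.99 and 5.86 against 8.17 and 7.49, so its wild-type signal lay below the filter. Of 13173 genes tested with limma, 29.8% passed an adjusted p of 0.05 (Benjamini-Hochberg), 18.7% lower and 11.1% higher in the mutant. Of these calls 37.1% were higher in the mutant, a share that became 48.5% with arrays centred on the tested genes' median.

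Promoters of members that hold an E2F motif are shown first, because E2F factors are known to bind such sites in several of their own genes. Windows of 250 bases before to 50 bases after the start were held for 7 of the 10 genes in RefSeq sequences (build GRCm38.p6), with 9 windows in all; Rb1, E2f4 and E2f5 had none. Capitals mark an E2F motif, searched on both strands as TTTCCCGC, TTTGGCGC, TTTCGCGC or TTTGCCGC; no match overlapped another motif searched. The windows, each 5' to 3' on the gene's strand, were chr2:157204485-157204784 (minus strand) for Rbl1, chr13:29986014-29986313 (minus strand) for E2f3, chr10:110745189-110745488 (plus strand) for E2f7 and chr4:136172024-136172323 (plus strand) for E2f2.
Rbl1: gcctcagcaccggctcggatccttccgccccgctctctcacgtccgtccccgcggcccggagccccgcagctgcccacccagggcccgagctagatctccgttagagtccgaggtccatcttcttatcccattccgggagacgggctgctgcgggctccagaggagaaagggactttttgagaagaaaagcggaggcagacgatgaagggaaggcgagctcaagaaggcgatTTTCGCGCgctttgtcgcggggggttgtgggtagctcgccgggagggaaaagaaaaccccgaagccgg
E2f3: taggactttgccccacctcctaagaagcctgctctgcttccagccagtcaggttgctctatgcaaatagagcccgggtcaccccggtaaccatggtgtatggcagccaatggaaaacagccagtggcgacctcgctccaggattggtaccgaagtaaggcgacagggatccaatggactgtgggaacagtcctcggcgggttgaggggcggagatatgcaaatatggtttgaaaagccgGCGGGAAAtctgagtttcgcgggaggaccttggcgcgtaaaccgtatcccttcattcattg
E2f7: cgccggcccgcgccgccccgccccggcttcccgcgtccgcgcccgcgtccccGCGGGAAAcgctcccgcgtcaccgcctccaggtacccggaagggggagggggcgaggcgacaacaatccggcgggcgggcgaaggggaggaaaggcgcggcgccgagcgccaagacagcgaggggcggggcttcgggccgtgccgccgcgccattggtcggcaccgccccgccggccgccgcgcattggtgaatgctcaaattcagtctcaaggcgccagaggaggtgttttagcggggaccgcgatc
E2f2: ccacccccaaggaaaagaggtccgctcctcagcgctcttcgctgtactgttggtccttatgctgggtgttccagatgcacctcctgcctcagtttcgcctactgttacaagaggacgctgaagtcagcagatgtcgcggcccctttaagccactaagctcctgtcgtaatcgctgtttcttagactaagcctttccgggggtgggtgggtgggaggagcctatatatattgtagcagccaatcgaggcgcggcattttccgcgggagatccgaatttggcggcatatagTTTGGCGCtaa

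Each of these windows held 1 match. In Rbl1 it lay at bases -18 to -11 from the start, in E2f3 at -11 to -4 on the opposite strand, in E2f7 at -198 to -191 on the opposite strand, and in E2f2 at 40 to 47 within the transcript. Among all 32851 windows of the table, 2.26% held such a motif, and among the 13523 windows of tested genes 3.68% did. The windows of Rbl2, E2f1 and E2f6 and the second windows of E2f2 and E2f3 had no match, which says only that these letters are not in them. A cell cycle homology motif, TTTGAA on either strand, is typical of genes switched on late in the cycle. It was in 3 of the 9 windows (Rbl2, E2f3 and the second E2f2 window), against 17.9% of all windows and 12% of windows of tested genes. A match is a description of the letters and not a measured site.

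**Figure D1:**
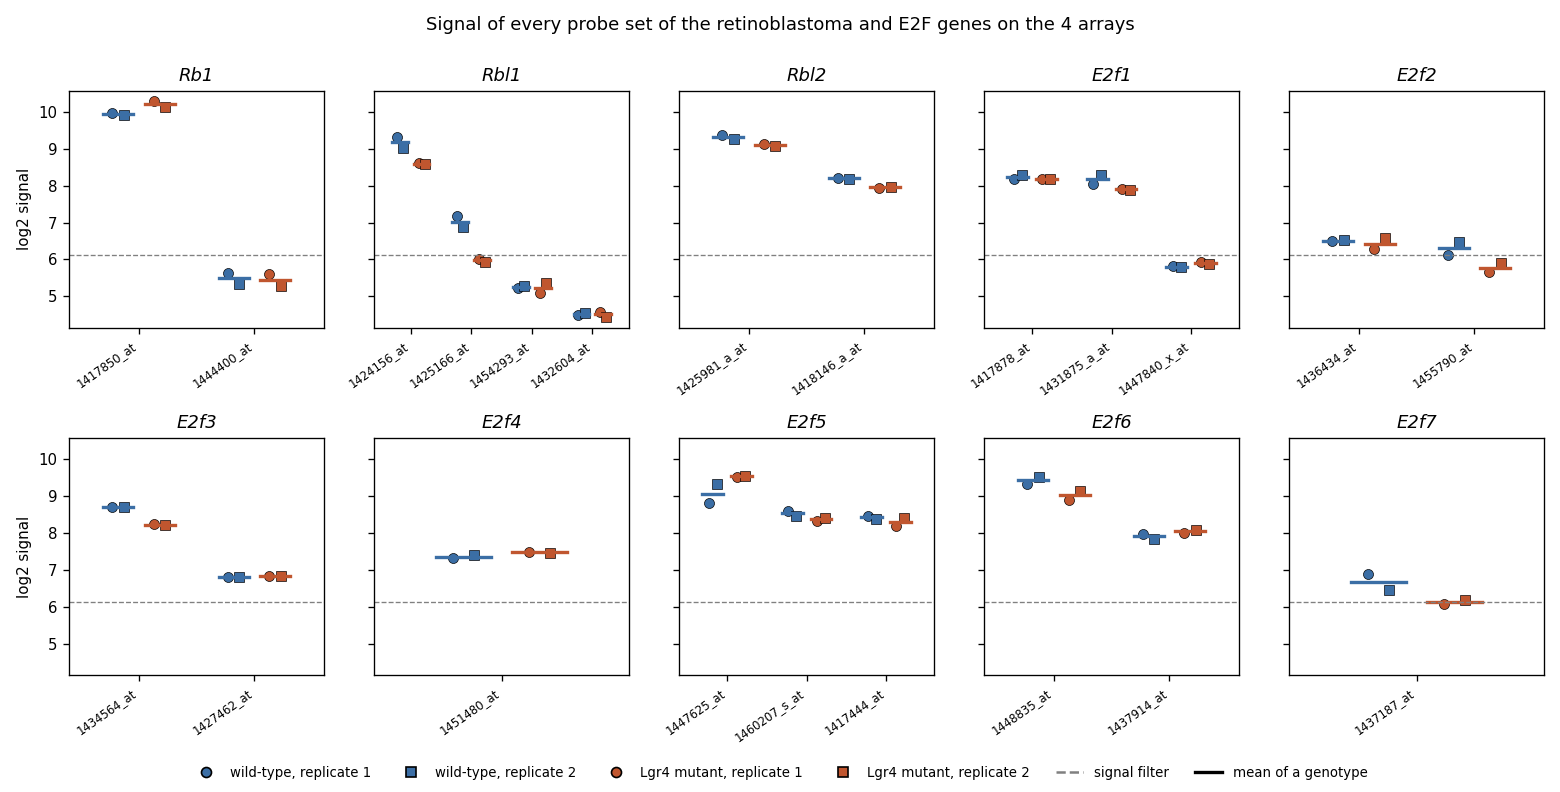
Log2 signal (vertical axis) of all 22 probe sets of the 10 genes on the 4 arrays; points are arrays, thick lines the mean of a genotype, and the dashed line the signal filter of 6.13. The 2 brighter Rbl1 probe sets and the brighter E2f3 probe set lie lower in both mutant arrays, while the brighter Rb1 probe set lies slightly higher.

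Of the 10 genes, 4 fell in the mutant cultures, none rose and 6 did not pass the test, against 18.7% of all tested genes that fell. The genes that fell were Rbl1, E2f3, E2f6 and E2f7, by 0.41 to 0.59 on the log2 scale, each read by its brightest probe set. The median log2 difference of the 10 genes was -0.155, against -0.03 over all tested genes. Both mutant arrays lay below both wild-type arrays for 5 genes, against 39.9% of all tested genes, and above them for 3, against 28.9%. Groups without overlap made up 68.8% of all tested genes in either direction. With 2 arrays per genotype an exact permutation test of any single gene cannot go below p = 0.333, so calls rest on limma, which borrows the spread of all genes. Read probe set by probe set in a fit over all 34945, without a signal filter, 5 of 22 were lower and none was higher, against 9.56% lower and 5.96% higher over all of them. Of the 22, 17 lay above the filter. Groups did not overlap for 10 probe sets below and 6 above, where all probe sets gave 59.5% in either direction, 31.6% below and 27.9% above. At an unadjusted limma p under 0.05, 5 of the 10 genes were lower, with Rbl2 added, and 2 were higher, Rb1 and E2f5. Over all 13173 tested genes, 3477 were lower and 2034 higher at that p.

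Rb1, the founding pocket protein, read 9.96 and 9.93 in the wild-type pair against 10.29 and 10.13 in the mutant pair by probe set 1417850_at. Both mutant arrays lay above both wild-type arrays, by a margin similar to the gap between the mutant arrays. The difference of 0.26 (95% interval 0.03 to 0.49, SE 0.0994) did not pass (limma adjusted p = 0.082). Renormalizing by quantiles brought it past the threshold (0.34, adjusted p = 0.0349), as did centring on the tested genes' median (0.31, adjusted p = 0.0464). It did not pass under the other alternatives. Averaging the probe sets gave 0.11 (adjusted p = 0.508), and centring each array on its median gave 0.23 (adjusted p = 0.116). With an array left out the difference was 0.18 to 0.34. The other Rb1 probe set, 1444400_at, lay below the filter at 5.64, 5.32, 5.59 and 5.28 on the 4 arrays in the order wild-type 1, wild-type 2, mutant 1 and mutant 2, so its groups overlapped.

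Rbl1, the pocket protein that rises when cells enter the cycle, fell by both of its probe sets above the filter. Probe set 1424156_at read 9.33 and 9.03 in the wild-type pair against 8.61 and 8.58 in the mutant pair, a difference of -0.59 (SE 0.117, adjusted p = 0.00727 in the gene fit). Probe set 1425166_at read 7.18 and 6.87 against 6.02 and 5.94, a difference of -1.05 (SE 0.126, adjusted p = 0.00152 over all probe sets), with both mutant values below the filter. Wild-type replicate 1 was the highest array with both probe sets, and the mutant arrays were close together. The gap between these probe sets widened from 2.16 in wild-type to 2.62 in the mutant pair, a change of 0.46 (SE 0.0964) that missed the threshold (adjusted p = 0.0702 over 5888 genes with 2 probe sets above the filter, of which 2.29% passed). Its other 2 probe sets, 1454293_at and 1432604_at, lay at 4.43 to 5.35 and had overlapping groups. The gene-level fall held in all 4 fits that left out an array, at -0.74 to -0.44. The probe-level call of 1424156_at was lost on leaving out either mutant array (adjusted p = 0.141 and 0.148).

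Rbl2, the pocket protein that prevails in resting cells, was slightly lower by both of its probe sets without passing. Probe set 1425981_a_at read 9.37 and 9.28 in the wild-type pair against 9.13 and 9.07 in the mutant pair, a difference of -0.22 (SE 0.0942, limma adjusted p = 0.109). Probe set 1418146_a_at read 8.22 and 8.17 against 7.94 and 7.98, a difference of -0.24 (SE 0.0966, adjusted p = 0.141). Neither probe set had overlapping groups. Under the alternatives that kept all arrays the gene did not pass, at -0.26 to -0.14. With an array left out the difference was -0.27 to -0.18.

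Within each array the signal of Rb1 gained on that of Rbl1. The log2 difference Rb1 minus Rbl1 was 0.63 and 0.90 in the wild-type pair against 1.68 and 1.55 in the mutant pair, a shift of 0.85. Against Rbl2 the corresponding values were 0.60 and 0.66 in the wild-type pair against 1.17 and 1.06 in the mutant pair, a shift of 0.48. Levels of different probes cannot be set against each other, so only the shift between genotypes can be read, and the shift was not tested. Rb1 shifted up without overlap against 6 of the 7 E2F factors, so also against genes that did not pass. The shifts were 0.14 (E2f4), 0.30 (E2f1), 0.35 (E2f2), 0.67 (E2f6), 0.73 (E2f3) and 0.81 (E2f7). Against E2f5 the groups overlapped (-0.21). Rb1 itself differed by 0.26 and the median tested gene by -0.03, so Rb1 also gained on most tested genes. The share of all tested genes without overlap against Rb1 was not computed.

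Among the activators, E2f3 fell by its brighter probe set and E2f1 did not pass. E2f3 probe set 1434564_at read 8.70 and 8.71 in the wild-type pair against 8.24 and 8.22 in the mutant pair, a 1.39-fold fall with the tightest pairs of the called members (difference -0.47, SE 0.0909, limma adjusted p = 0.006). Its second probe set, 1427462_at, read 6.81 to 6.84 on all 4 arrays (0.01, adjusted p = 0.943). The gap between the E2f3 probe sets narrowed from 1.89 to 1.40, a change of -0.49 (SE 0.0953) just short of the threshold (adjusted p = 0.0569). Averaging the probe sets ended the E2f3 call (-0.23, adjusted p = 0.0675), and so did leaving out mutant replicate 1 (-0.48, adjusted p = 0.0632) or mutant replicate 2 (-0.46, adjusted p = 0.0703).

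E2f1 read 8.17 and 8.29 in the wild-type pair against 8.19 on both mutant arrays by probe set 1417878_at, so its groups overlapped. Its difference was -0.04 (95% interval -0.26 to 0.18, adjusted p = 0.76), and its sign turned with further quantile normalization (0.02), centring on the tested genes (0.01) or wild-type replicate 2 left out (0.02). A second probe set, 1431875_a_at, read 8.04 and 8.31 against 7.92 and 7.89, a difference of -0.27 (adjusted p = 0.171) that passed without wild-type replicate 1 (-0.40, adjusted p = 0.0449). The third, 1447840_x_at, lay below the filter at 5.80 to 5.94. E2f2 was near the filter: 1436434_at read 6.49 and 6.53 in the wild-type pair against 6.27 and 6.58 in the mutant pair, with overlapping groups (-0.09, adjusted p = 0.615). Its other probe set, 1455790_at, whose mean lay below the filter, read 6.12 and 6.48 against 5.65 and 5.89, a difference of -0.53 (SE 0.145, adjusted p = 0.046 over all probe sets). That call was lost on leaving out wild-type replicate 2 (-0.35, adjusted p = 0.0901), mutant replicate 1 (-0.41, adjusted p = 0.325) or mutant replicate 2 (-0.65, adjusted p = 0.121).

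**Figure D2:**
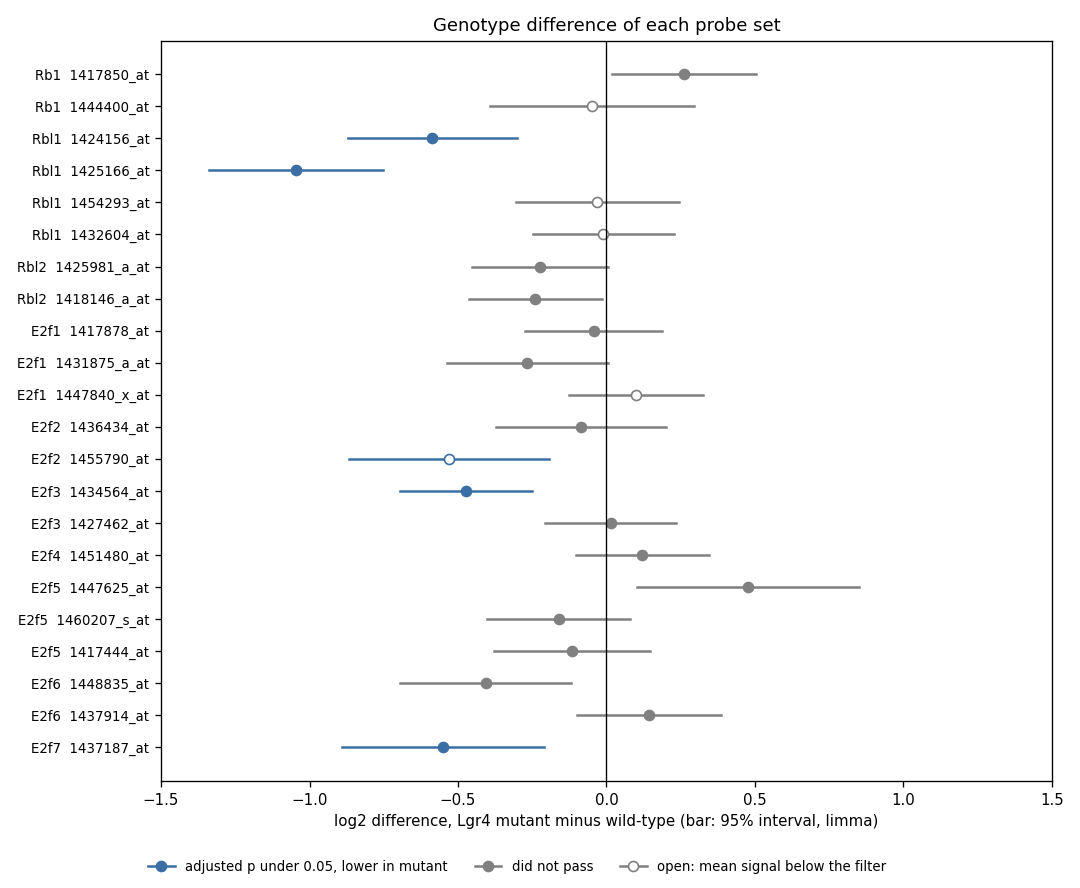
Log2 difference, Lgr4 mutant minus wild-type (horizontal axis), of each of the 22 probe sets with its 95% interval from limma over all probe sets; open points have a mean signal below the filter. The 5 probe sets that passed are all lower in the mutant, and within Rb1, E2f1, E2f3, E2f5 and E2f6 the probe sets differ in sign, in E2f3 by a second difference of only 0.01.

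The repressors E2f4 and E2f5, partners of Rbl1 and Rbl2, did not pass. E2f4, with a single probe set (1451480_at), read 7.33 and 7.39 in the wild-type pair against 7.50 and 7.46 in the mutant pair, a difference of 0.12 (95% interval -0.09 to 0.33, adjusted p = 0.353). E2f5 probe set 1447625_at read 8.81 and 9.32 in the wild-type pair against 9.54 and 9.55 in the mutant pair, with wild-type replicate 1 far below the rest. Its difference of 0.48 (SE 0.155) missed the threshold at limma adjusted p = 0.0501. Leaving out wild-type replicate 2 brought it past (0.73, adjusted p = 0.00027), as did renormalizing by quantiles (0.55, adjusted p = 0.0383), centring on the tested genes (0.53, adjusted p = 0.0389) and an intensity trend (0.48, adjusted p = 0.0421). Without wild-type replicate 1 the difference was 0.22.

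The other E2f5 probe sets had differences of the opposite sign. Probe set 1460207_s_at read 8.61 and 8.46 in the wild-type pair against 8.33 and 8.42 in the mutant pair (-0.16, adjusted p = 0.346), and 1417444_at read 8.47 and 8.38 against 8.20 and 8.42 (-0.12, adjusted p = 0.543). The platform annotation ties both of these to the same transcript record and gives none for 1447625_at. The gap between 1447625_at and 1460207_s_at was 0.21 and 0.86 in the wild-type pair against 1.20 and 1.13 in the mutant pair, a change of 0.64 (SE 0.205, adjusted p = 0.152). Averaged over its probe sets, E2f5 differed by 0.07.

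E2f6, the repressor that works without pocket proteins, fell by its brighter probe set. Probe set 1448835_at read 9.34 and 9.53 in the wild-type pair against 8.91 and 9.15 in the mutant pair, a 1.33-fold fall (-0.41, SE 0.119, limma adjusted p = 0.0341). In the fit over all probe sets it missed the threshold (adjusted p = 0.0661). The second, 1437914_at, read 7.98 and 7.84 against 8.01 and 8.09, with a difference of 0.14 (adjusted p = 0.408 over all probe sets). Between them the gap moved by -0.55 without passing (SE 0.142, adjusted p = 0.104). Averaging the probe sets ended the E2f6 call (-0.13, adjusted p = 0.306), as did renormalizing by quantiles (-0.32, adjusted p = 0.0883) and centring on the tested genes (-0.35, adjusted p = 0.0641). Leaving out wild-type replicate 2 (-0.31, adjusted p = 0.0506) or mutant replicate 1 (-0.29, adjusted p = 0.326) also ended it.

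E2f7, the atypical repressor, is itself known as an E2F target. Its single probe set, 1437187_at, read 6.88 and 6.46 in the wild-type pair against 6.06 and 6.18 in the mutant pair, a 1.46-fold fall (-0.55, SE 0.14, limma adjusted p = 0.0203). The mutant mean of 6.12 lay at the filter, so the size of the fold is against a signal near background. Leaving out mutant replicate 1 ended the call (-0.49, adjusted p = 0.0833), and without wild-type replicate 1 the difference shrank to -0.34. In the fit over all probe sets (adjusted p = 0.0419) the call was also lost without wild-type replicate 1 (0.0858), mutant replicate 1 (0.271) or mutant replicate 2 (0.168). Its close relative E2f8, also atypical and not among the 10 genes, read 7.87 and 7.57 against 7.17 and 7.19 (-0.54, SE 0.117, adjusted p = 0.00982).

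Genes that work with the pocket proteins and E2F factors were read from gene lists, described by their counts beside those of all tested genes. Of the E2F partners E2f8, Tfdp1 and Tfdp2, 2 of 3 fell and none rose, against 18.7% lower and 11.1% higher of all tested genes. E2f8 fell as above. Tfdp2, a DP subunit that lets E2F factors bind DNA, fell from 9.50 ± 0.06 to 9.09 ± 0.13 (SD, n = 2 per genotype, limma adjusted p = 0.0203). Tfdp1 differed by -0.14 (adjusted p = 0.303). None of the 3 passed when probe sets were averaged. Fewer passed when either mutant array was left out, as among all tested genes. The MuvB core joins Rbl1 or Rbl2 and E2f4 in resting cells and B-Myb in cycling cells. Of this core and its partners, 1 of 7 tested genes fell (14.3%), near the 18.7% of all tested genes. It was the DNA-binding subunit Lin54 (-0.64, adjusted p = 0.0125). None rose. At an unadjusted limma p under 0.05, 2 were lower and 0 higher, against 3477 lower and 2034 higher of the 13173 tested genes. Both counts rose without wild-type replicate 2, as did the shares of all tested genes. When probe sets were averaged 0 were lower, against 15.3% of all tested genes. Mybl2, which encodes B-Myb, lay below the filter.

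The E2F6 repressor complex had 2 of 9 tested genes that fell and none that rose, with a median of -0.15. They were Rnf2, a polycomb ubiquitin ligase (-0.49, limma adjusted p = 0.0223), and Yaf2, a polycomb adaptor (-0.33, adjusted p = 0.0396). That is 22.2% of the list, near the 18.7% of all tested genes that fell. The count went to 0 when probe sets were averaged, against 15.3% of all tested genes. It also dropped when either mutant array was left out, as did the share of all tested genes. Among corepressors of pocket proteins 2 of 10 fell (20%) and none rose, namely Arid4a, which binds Rb1 (-0.71, adjusted p = 0.00682), and the DNA methyltransferase Dnmt1 (-0.44, adjusted p = 0.00958). The count of lower corepressors rose without wild-type replicate 2 and dropped without mutant replicate 2, and so did the share of all tested genes that fell. The deacetylases Hdac1, Hdac2 and Hdac3 of that list had differences of -0.03, 0.01 and 0.05. At an unadjusted limma p under 0.05 the partners had 2 lower, the E2F6 complex 3 and the corepressors 3, with 0 higher in each. Of the 13173 tested genes, 3477 were lower and 2034 higher at that p.

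Upstream, the cyclins and kinases that phosphorylate pocket proteins had 3 of 12 lower and 1 higher. Those are 25% and 8.33% of the list, near the 18.7% and 11.1% of all tested genes. Ccne2, an E-type cyclin of the start of DNA synthesis, fell from 8.46 and 7.74 to 7.22 on both mutant arrays (-0.88, SE 0.198, limma adjusted p = 0.0121). The count of lower genes dropped without mutant replicate 2, and that of higher genes rose without wild-type replicate 2. The shares of all tested genes moved the same way. Ccnc (-0.50) and the S-phase cyclin Ccna2 (-0.46) fell as well. Ccne1 and Ccne2 are also counted among the G1/S targets below, and Ccna2 and Cdk1 among the G2/M targets. Ccnd2, a D-type cyclin, rose from 12.07 ± 0.13 to 12.69 ± 0.03 (0.62, adjusted p = 0.00296), while Ccnd1 differed by -0.09 without passing (adjusted p = 0.496).

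Of the 7 CDK inhibitors, which keep pocket proteins in their active form, 4 fell (57.1% against 18.7% of all tested genes) and 2 rose (28.6% against 11.1%). Cdkn2b (-1.32), Cdkn1b (-0.51) and Cdkn2d (-0.40) fell, and Cdkn2c (0.73) and Cdkn1c (0.72) rose. Both counts dropped without mutant replicate 1, and the count of lower genes dropped without mutant replicate 2. The shares of all tested genes dropped there too.

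**Figure D3:**
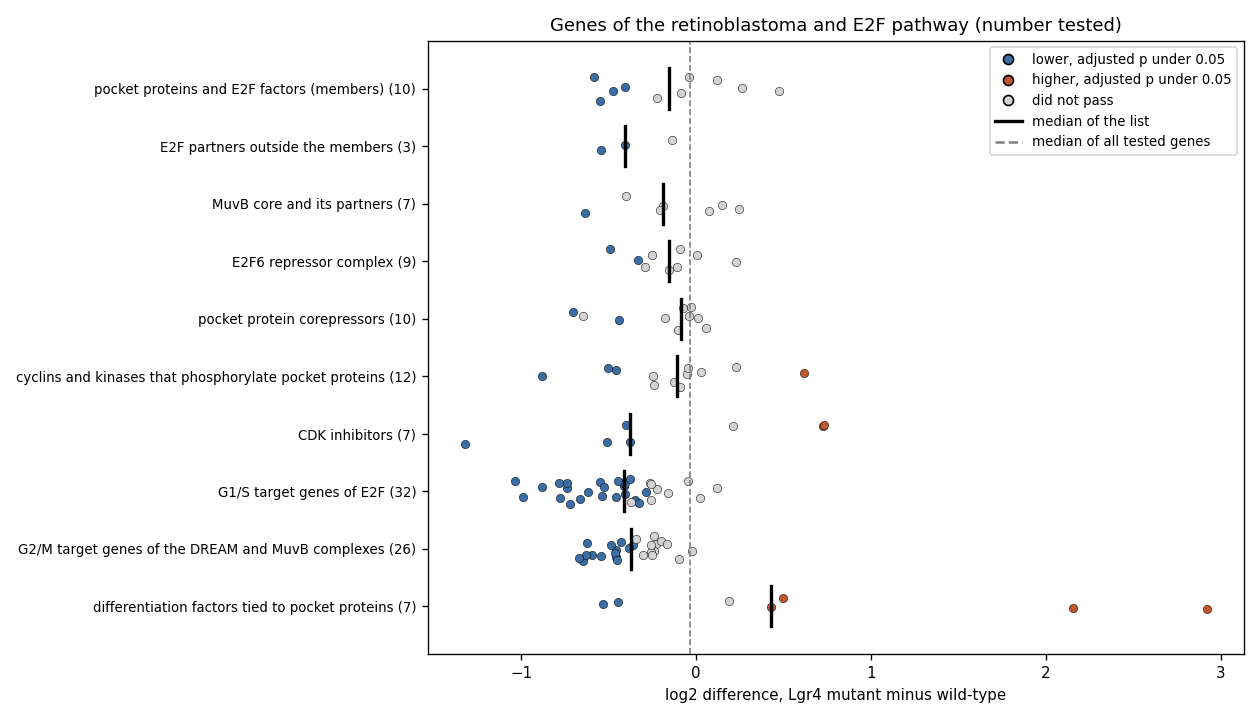
Log2 difference, Lgr4 mutant minus wild-type (horizontal axis), of every tested gene of the pathway lists (vertical axis, number tested in brackets); black bars are list medians and the dashed line is the median of all tested genes, -0.03. The target lists lie to the left, with medians of -0.42 and -0.37, and no gene of theirs passed as higher.

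Downstream lie the target genes of E2F. Of 32 tested genes switched on at the start of DNA synthesis (G1/S), 23 fell, none rose and 9 did not pass. That is 71.9% lower against 18.7% of all tested genes. At an unadjusted limma p under 0.05, 28 were lower and 0 higher, against 3477 lower and 2034 higher of the 13173 tested genes. Their median difference was -0.42 against -0.03. Rrm2, the subunit of ribonucleotide reductase that sets its activity in S phase, read 10.61 and 10.17 in the wild-type pair against 9.29 and 9.42 in the mutant pair (-1.04, SE 0.145, limma adjusted p = 0.00129). Cdc6, a loader of the replicative helicase, read 7.28 and 7.21 against 6.35 and 6.16 (-0.99, SE 0.104, adjusted p = 0.000274). Ccne2, which is also in the cyclin list, was the third by size. Orc1 (0.12) and Cdc25a (0.02), chosen after their values were seen, were the only tested genes of this list with a positive difference.

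The targets of the DREAM and MuvB complexes in mitosis (G2/M) were lower as well. Of 26 tested, 14 fell, none rose and 12 did not pass, or 53.8% lower against 18.7% of all tested genes. At an unadjusted limma p under 0.05, 22 were lower and 0 higher, against 3477 lower and 2034 higher of the 13173 tested genes. All 26 differences were below 0, against 7204 of the 13173 tested genes. Their median was -0.37, against -0.03 over all tested genes. Ttk, a kinase of the spindle checkpoint, read 7.65 and 7.48 in the wild-type pair against 6.97 and 6.82 in the mutant pair (-0.67, SE 0.106, limma adjusted p = 0.00243). Mki67, the common marker of cycling cells, fell from 10.79 ± 0.13 to 10.16 ± 0.02 (SD, n = 2 per genotype; -0.63, adjusted p = 0.00271). Bub1, another checkpoint kinase, fell by 0.65 (adjusted p = 0.0364) with wild-type arrays far apart at 8.87 and 8.19.

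The mean log2 signal of the G1/S list was 8.91 and 8.76 in the wild-type pair against 8.37 and 8.40 in the mutant pair, and that of the G2/M list was 9.05 and 8.93 against 8.62 and 8.60. Wild-type replicate 1 was the highest array in both lists, as it was for Rbl1 and E2f7. Calls in these lists dropped to 10 (G1/S) and 6 (G2/M) without mutant replicate 1 and to 15 and 6 without mutant replicate 2, where the share of all tested genes that fell was 7.91% and 8.9%. The G2/M count rose without wild-type replicate 2, as did the share of all tested genes that fell. Along with them, the 10 macrophage markers had a mean log2 signal of 12.13 and 12.12 in the wild-type pair against 11.75 and 11.68 in the mutant pair. Of these 10, 5 were lower (50%) and none higher. At an unadjusted limma p under 0.05, 7 were lower and 0 higher, against 3477 lower and 2034 higher of the 13173 tested genes. The 7 stromal progenitor markers averaged 10.18 and 10.32 against 9.72 and 9.77, with 3 lower (42.9%). Thy1 had the largest fall there (-2.17), while 2 markers had a positive difference. The 8 mural markers averaged 9.71 and 9.69 against 9.27 and 9.31, with 4 lower (50%) and 1 higher (12.5%). Rgs5 had the largest fall there (-2.09), while 3 had a positive difference. Over all tested genes 18.7% were lower and 11.1% higher. Endothelial markers averaged 6.95 to 7.16, mesothelial markers 6.36 to 6.49 and lymphocyte markers 6.05 to 6.22. Of the 7 lymphocyte markers on the array, Cd3e, Cd4 and Cd8a lay above the filter, at 6.59 to 7.42 over the arrays, and did not pass, and Cd3g, Cd79a, Ms4a1 and Nkg7 lay below it. The part of these shifts in the signal of E2F genes and their targets was not tested.

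**Figure D4:**
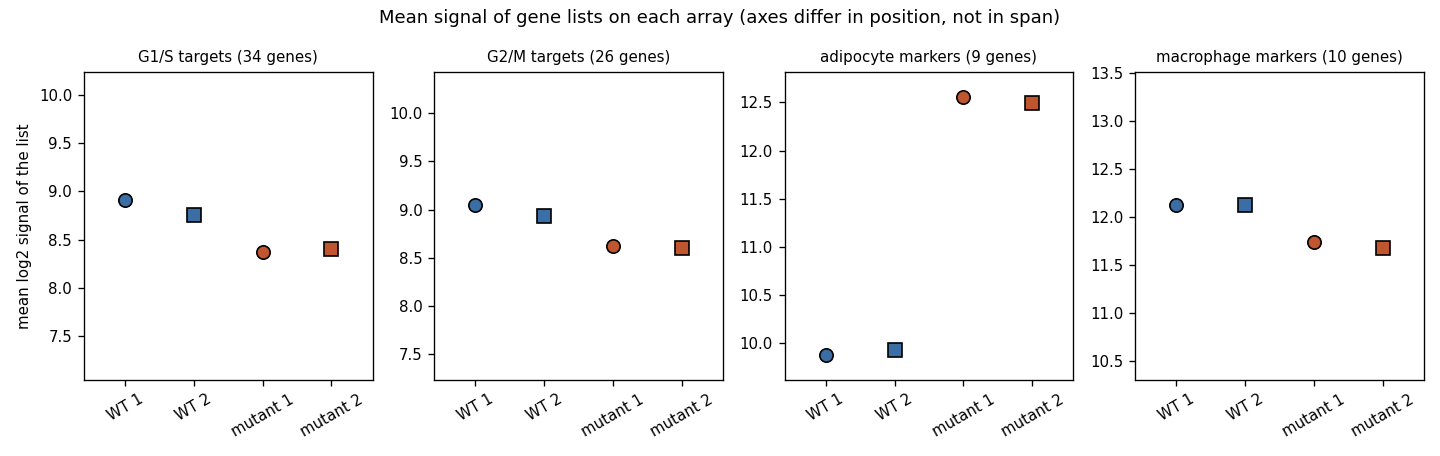
Mean log2 signal (vertical axis) over the genes on the array for the G1/S targets, the G2/M targets, adipocyte markers and macrophage markers on each of the 4 arrays. Both target lists and the macrophage markers are lower on both mutant arrays, and the adipocyte markers are higher by more than 2 log2 units.

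The motifs marked in the promoters above were also counted in the target lists. Those lists were written from textbook knowledge of such targets, so their motif shares are a description and not a separate result. An E2F motif was in 13 of 31 windows of the G1/S list (41.9%) and in 1 of 25 windows of the G2/M list (4%). The share was 2.26% of all windows and 3.68% of windows of tested genes. The cell cycle homology motif was in 1 of 31 windows (3.23%) of the G1/S list and in 20 of 25 (80%) of the G2/M list. Its share was 17.9% of all windows and 12% of windows of tested genes. Among tested G1/S genes with a window, 10 of 13 with an E2F motif fell and 10 of 14 without one fell.

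Differentiation factors that are tied to pocket proteins in fat cells had calls in both directions. Of 7 tested, 4 rose (57.1% against 11.1% of all tested genes) and 2 fell (28.6% against 18.7%). Both counts dropped when either mutant array was left out, as did the shares of all tested genes. Pparg, the master regulator of adipogenesis, read 8.10 and 7.73 in the wild-type pair against 10.85 and 10.82 in the mutant pair (limma adjusted p = 2.19e-06). Cebpa, its partner, read 9.37 and 10.25 against 11.95 and 11.98. Nrip1, a nuclear receptor corepressor, rose by 0.43 (adjusted p = 0.0439). Id2, an inhibitor of DNA binding that interacts with Rb1, rose by 0.50 (adjusted p = 0.00497). Foxc2, a forkhead factor of brown-like fat (-0.53), and Cebpb, an early adipogenic factor (-0.45), fell. Ppargc1a, a coactivator of mitochondrial biogenesis, read 4.85 and 5.02 against 6.86 and 6.83, with a mean below the filter (1.91, adjusted p = 4.81e-06 in the fit without the filter).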

How the data were processed

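RNA of 4 samples was measured on Affymetrix 3' expression arrays. The authors deposited log2 signals by probe set, made with Partek 6.6 and RMA per the submitters' processing notes; which variant of RMA they used is not stated there. RMA makes the array distributions alike, so differences in total RNA are lost and those near background shrink. Of 45101 probe sets, 34945 named 1 gene in the platform annotation, 932 several, 9160 none and 64 were controls; 204 had no RefSeq match (GRCm38.p6) for a current symbol. Each gene was read by its brightest probe set and tested if that mean passed the 40th percentile, 6.13. Tests used limma 3.58.1 (lmFit, eBayes) under R 4.3.3, 2-sided, with Benjamini-Hochberg adjustment at 0.05, a prior SD of 0.104 and 6.21 prior besides 2 residual degrees of freedom. Probe sets were fitted apart without the filter. A comparison of the 2 brightest probe sets of a gene, the within-array ratios to Rb1 and the centring on tested genes were added after seeing the data. Precision is limited by the number of arrays. All probe sets of the 10 genes are given; from other lists at most 3 called genes per direction were named by size, or any gene of a list of 12 or fewer. The members and lists were chosen with earlier results of these data known. Alternatives were averaging probe sets, no filter, centring, a second quantile step, an intensity trend, a replicate block and leaving out each array; with 1 array left in a genotype, that array is taken to vary like the other pair.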

Additional observations from a re-analysis of the deposited data

How the results depend on the processing

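The gene-level fall of Rbl1 kept its direction and its side of the threshold under all 11 alternatives, at -0.74 to -0.42; centring on the median of the tested genes was added after seeing the data. All genes that passed numbered 3924, 3333 to 4879 under the settings that kept all arrays, and 1851 to 6349 when an array was left out, with the highest count without wild-type replicate 2. Members that fell numbered 4, with 2 when probe sets were averaged. They numbered 3 after a second quantile normalization and 3 after centring on the tested genes, where E2f6 was lost. Fewer fell when either mutant array was left out. No member rose, but 2 did after a second quantile normalization, 2 after centring on the tested genes, 1 with an intensity trend, and 0 to 1 when an array was left out. Counts that fell when an array was left out were 10 to 25 for G1/S targets and 6 to 20 for G2/M targets. Member probe sets that fell numbered 5, and 1 to 5 when an array was left out; 0 to 1 then rose.

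The replicate numbers of the labels paired the arrays only by number: deviations of same-numbered arrays from their genotype means correlated at 0.159 over genes. With the number as a block 4879 genes passed, 4 members fell and 1 rose (E2f5, 0.48, limma adjusted p = 0.000273 by gene). By probe set, 1 member rose, while E2f6 probe set 1448835_at passed (-0.41, adjusted p = 0.00791). The block fit by gene gave every member the same SE of 0.117, against 0.155 for E2f5 without the block. A gene's own spread therefore did not enter its p-value there, and these calls are no evidence of pairing.

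Among the members, signs turned only for differences near 0. E2f1 was 0.0247 after a second quantile normalization, 0.0101 after centring on the tested genes and -0.103 to 0.0161 when an array was left out, and the E2f3 probe set 1427462_at was -0.0192 after centring each array on its median. When an array was left out, E2f2 ranged from -0.238 to 0.0665 by gene and Rb1 1444400_at from -0.207 to 0.112, Rbl1 1432604_at from -0.0823 to 0.0609, E2f1 1417878_at from -0.103 to 0.0161, Rbl1 1454293_at from -0.166 to 0.104 and E2f2 1436434_at from -0.238 to 0.0665 by probe set. The cause of these changes was not tested. Signal near background limits E2f2, E2f7 and the 5 member probe sets below the filter.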
